A study of Mus musculus with 4 samples.

Results

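The genes described are 6 kinases of SR proteins, *Clk1*, *Clk2*, *Clk3*, *Clk4*, *Srpk1* and *Srpk2*. They were taken by gene symbol from a table of 29300 genes, each symbol matched 1 row, and all 6 were among the 17144 genes tested. RNA was sequenced from the hippocampus of 2 sham mice and 2 surgery mice, taken at day 1 after the operation. All 4 were wild-type males of the C57BL/6 strain, 7 to 8 months of age, and both groups received isoflurane anesthesia and tramadol. Only the surgery mice also had an open fracture of the tibia fixed by a nail in the bone marrow cavity, which serves as a model of perioperative neurocognitive disorder (PND). The comparison asks how the hippocampal levels of these mRNAs differed between surgery and sham mice. The sham procedure included no fracture, so the fracture, its fixation and the recovery from them cannot be told apart.

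SR proteins are splicing factors whose tails are rich in serine and arginine. SRPK kinases act largely in the cytoplasm and phosphorylate these tails, which lets the SR proteins be carried into the nucleus. CLK kinases are dual-specificity enzymes that act mostly inside the nucleus, where further phosphorylation releases SR proteins from nuclear speckles to sites of splicing. CLK genes are also known to make transcripts that retain introns or skip a coding exon, and for *Clk1* the balance of these forms is regulated by CLK activity itself.

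Exon 4 of each CLK gene is shown because the annotation of all 4 genes holds a transcript without it that is marked for nonsense-mediated decay, while the counts add up all transcripts of a gene. Exon 4 is also absent from a *Clk4* transcript marked as protein-coding and from a *Clk1* transcript marked as retaining an intron. The sequences come from GENCODE release M21 on mm10, are printed 5′ to 3′ on the coding strand, and are wholly coding. Capitals mark the 6 of 91 positions at which *Clk1* and *Clk4* differ, the other 85 being identical.
Clk1 exon 4: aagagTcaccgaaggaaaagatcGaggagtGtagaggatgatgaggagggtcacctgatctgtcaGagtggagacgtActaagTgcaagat
Clk4 exon 4: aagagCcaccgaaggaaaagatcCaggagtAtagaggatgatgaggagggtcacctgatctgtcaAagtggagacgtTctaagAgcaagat
Clk2 exon 4: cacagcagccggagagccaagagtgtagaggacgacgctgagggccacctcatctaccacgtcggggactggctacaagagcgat
Clk3 exon 4: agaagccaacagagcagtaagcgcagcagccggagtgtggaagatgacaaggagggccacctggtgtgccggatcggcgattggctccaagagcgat
The *Clk1* exon lies at chr1:58420121-58420211 on the minus strand and the *Clk4* exon at chr11:51273078-51273168 on the plus strand. The *Clk2* exon of 85 bases is at chr3:89169618-89169702 on the plus strand, and the *Clk3* exon of 97 bases is at chr9:57758627-57758723 on the minus strand. The GC content of the exon is 48.4% in *Clk1*, 47.3% in *Clk4*, 61.2% in *Clk2* and 59.8% in *Clk3*. Over the whole coding sequence the longest stretch that *Clk1* and *Clk4* share is 34 bases, and no window of 75 bases from the transcripts of any CLK gene, read on the coding strand, occurs in the transcripts of another gene. Counts per gene cannot show which transcript form a read came from, so the balance of forms was not tested.

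*Clk1* and *Clk4*, which encode the most similar pair of these kinases, were both higher in the surgery mice, by 1.86-fold and 1.78-fold. *Srpk2*, the SRPK of the pair with the higher counts, was 1.33-fold higher. *Clk2*, *Clk3* and *Srpk1* did not pass the test. Levels are given as CPM, counts scaled to a common library size after TMM normalization. Each fold change, its standard error (SE) and its adjusted p come from the quasi-likelihood test of edgeR, and p-values were adjusted by the Benjamini-Hochberg method over all 17144 genes. A gene was called at an adjusted p under 0.05. Since each group had 2 mice, the test borrows its estimate of spread from all genes. When offsets for transcript length and GC content were added to this fit, no member was called, as described below.

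*Clk1* (ENSMUSG00000026034, chr1:58410189-58424066, minus strand) had 1753 and 1480 counts in the sham mice and 2762 and 2816 counts in the surgery mice. The scaled level was 102 and 81.0 CPM in the sham mice against 173 and 167 CPM in the surgery mice. Both surgery mice were above both sham mice, and the difference between the groups was larger than the spread within either. The means were 91.4 ± 14.7 and 170 ± 4.48 CPM (SD, n = 2 each), with a log2 fold change of 0.90 (SE 0.11, 95% interval 0.63 to 1.16, adjusted p = 0.00492 from edgeR). Of the genes tested, 5.41% had a larger log2 fold change than *Clk1*.

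*Clk4* (ENSMUSG00000020385, chr11:51261730-51281766, plus strand) encodes the closest relative of CLK1, with 78.0% identical residues in their translated sequences. It had 1091 and 969 counts in the sham mice and 1693 and 1712 counts in the surgery mice. In scaled units these were 63.3 and 53.0 CPM against 106 and 101 CPM, again without overlap between the groups. The means were 58.2 ± 7.30 and 104 ± 3.34 CPM (SD, n = 2 each), and the log2 fold change was 0.84 (SE 0.10, 95% interval 0.60 to 1.07, adjusted p = 0.00466 from edgeR). In *Clk1* and *Clk4* alike, the second sham mouse was the lowest of the 4 mice and the first surgery mouse the highest in CPM. An RNA gene of the same strand, *Gm25082*, shares 59 exonic bases with *Clk4* and had at most 26 counts in any mouse.

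*Clk2* (ENSMUSG00000068917, chr3:89164795-89176921, plus strand) encodes a kinase of the same family that is also known to act in metabolic signaling. Its level was 52.7 and 43.9 CPM in the sham mice and 50.2 and 46.2 CPM in the surgery mice. Both surgery mice lay between the 2 sham mice. The log2 fold change was -0.0028 (SE 0.11, adjusted p = 0.988 from edgeR), and its 95% interval ran from -0.26 to 0.26.

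*Clk3* (ENSMUSG00000032316, chr9:57750624-57765860, minus strand) encodes the CLK with the longest coding sequence of the 4, of 1914 bases. Its level was 77.9 and 79.8 CPM in the sham mice and 78.2 and 63.5 CPM in the surgery mice. The first surgery mouse fell between the sham mice and the second was below both, so the groups overlapped. The log2 fold change was -0.15 (SE 0.11, 95% interval -0.41 to 0.10, adjusted p = 0.326 from edgeR). It was -0.33 without the first surgery mouse, and then passed the test with an adjusted p of 0.0442 from edgeR, and it was -0.0071 without the second. Exons of *Edc3*, a decapping gene on the opposite strand, overlap those of *Clk3* by 1284 bases. *Edc3* itself had a log2 fold change of -0.14 (SE 0.10, adjusted p = 0.361 from edgeR). Whether the counting used strand is not given in the sources used here, so reads from this overlap cannot be assigned to a gene.

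*Srpk1* (ENSMUSG00000004865, chr17:28587648-28622521, minus strand) encodes the kinase first known for phosphorylating SR proteins as cells divide. Its level was 66.4 and 58.9 CPM in the sham mice and 66.3 and 66.2 CPM in the surgery mice, with both surgery mice inside the range of the sham mice. The log2 fold change was 0.08 (SE 0.08, 95% interval -0.12 to 0.28, adjusted p = 0.516 from edgeR).

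*Srpk2* (ENSMUSG00000062604, chr5:23503264-23684617, minus strand) encodes an SRPK that is prominent in the nervous system, and shares 64.2% of aligned residues with SRPK1. It had 2615 and 2697 counts in the sham mice and 3139 and 3382 counts in the surgery mice. The level was 152 and 148 CPM against 197 and 200.4 CPM, so both surgery mice were above both sham mice. The means were 149.7 ± 3.01 and 199 ± 2.52 CPM (SD, n = 2 each), and the log2 fold change was 0.41 (SE 0.06, 95% interval 0.27 to 0.55, adjusted p = 0.00614 from edgeR). Exons of *Kmt2e*, on the opposite strand, overlap those of *Srpk2* by 972 bases, and *Kmt2e* had a log2 fold change of 0.22 (SE 0.06, adjusted p = 0.0403 from edgeR). Here too the use of strand is not given, so the *Srpk2* counts may include reads of *Kmt2e* from this overlap or lack some of their own.

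**Figure D1:**
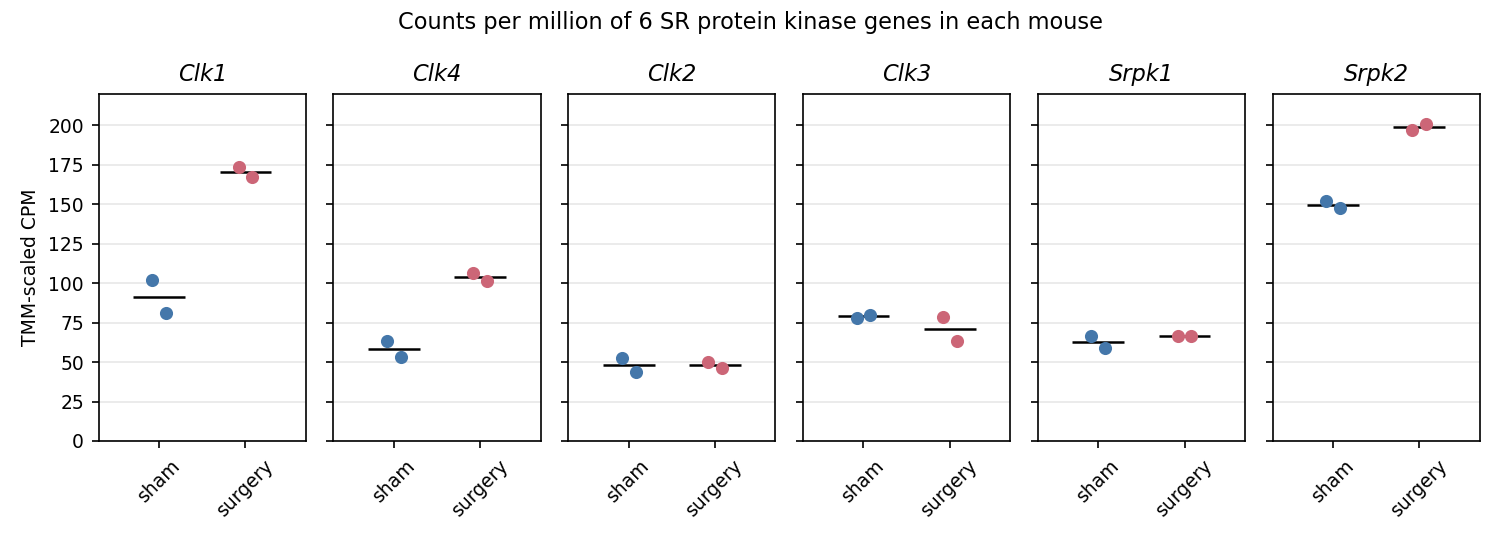
TMM-scaled CPM (vertical axis, from 0) of the 6 kinase genes in 2 sham mice (blue) and 2 surgery mice (red), with a black line at each group's mean. The surgery points of Clk1, Clk4 and Srpk2 lie above both sham points, and those of Clk2, Clk3 and Srpk1 overlap the sham points.

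Thus 3 of the 6 members were higher, none was lower and 3 did not pass the test in the fit without offsets for transcript length and GC content. Of all 17144 genes tested, 13.1% were higher and 12.8% were lower at the same threshold. When a fold of 1.5 or more, or of 0.67 or less, was also required, *Clk1* and *Clk4* were called higher and no member was called lower, where 6.75% of all genes were higher and 2.25% were lower. For 3 members both surgery mice were above both sham mice and for none were both below, against 33.2% and 32.2% of all genes tested. The median log2 fold change was 0.24 over the 6 members and 0.01 over all genes tested. In bulk tissue, a change in the number of cells that express a gene and a change in RNA per cell cannot be told apart.

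Ratios of counts within a mouse do not depend on how libraries were scaled. The *Clk1* to *Clk2* ratio was 1.93 and 1.85 in the sham mice and 3.45 and 3.61 in the surgery mice, a 1.87-fold difference of the means. The *Clk4* to *Clk3* ratio was 0.813 and 0.664 in the sham mice and 1.36 and 1.60 in the surgery mice. Both ratios were higher in 2 of 2 surgery mice than in any sham mouse. The *Srpk2* to *Srpk1* ratio was 2.29 and 2.50 in the sham mice and 2.97 and 3.03 in the surgery mice, also without overlap. The *Clk1* to *Clk4* ratio, computed after the values of both genes were seen, was 1.61 and 1.53 against 1.63 and 1.64, so that these 2 genes differed little in how they changed. In a two-sided exact permutation test each of these 4 ratios gave p = 0.333, the smallest value that 2 against 2 mice allow, so none could pass a threshold of 0.05. The ratios to *Clk2*, *Clk3* and *Srpk1* set a gene whose transcripts have a lower GC content over one with a higher. When offsets for transcript length and GC content were added to the fit, the fitted fold difference of *Clk1* to *Clk2* was 1.09 in place of 1.86, that of *Clk4* to *Clk3* was 1.23 in place of 1.99, and that of *Srpk2* to *Srpk1* was 1.03 in place of 1.25.

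Levels were compared between genes as CPM per kilobase of the principal annotated transcript. The order, sums and shares below hold for this length only, since the counts add up all transcripts of a gene. The principal transcript is 6491 bases for *Srpk2* and 4653 for *Srpk1*, while their protein-coding transcripts average 1798 and 1598 bases. For *Clk1* both lengths are 1796 bases, so a mean length would raise both SRPK genes relative to *Clk1*. In the sham mice *Clk1* was the highest at 50.9 ± 8.19 CPM per kilobase, followed by *Clk3* at 31.6 ± 0.543 and *Clk4* at 29.8 ± 3.74 (SD, n = 2). *Srpk2* at 23.1 ± 0.463 and *Clk2* at 22.4 ± 2.88 came next, and *Srpk1* was the lowest at 13.5 ± 1.14 CPM per kilobase. The sham values of *Clk3* and *Clk4* overlapped, as did those of *Srpk2* and *Clk2*, so neither pair has an order. In the surgery mice the order was *Clk1* at 94.7 ± 2.49, *Clk4* at 53.3 ± 1.71, *Srpk2* at 30.6 ± 0.388, *Clk3* at 28.4 ± 4.16, *Clk2* at 22.4 ± 1.32 and *Srpk1* at 14.2 ± 0.00532 CPM per kilobase. Here the values of *Srpk2* and *Clk3* overlapped. Together *Clk1* and *Clk4* made up 61.6% and 58.0% of the summed CLK level per kilobase in the sham mice and 73.4% and 75.6% in the surgery mice. The summed CLK level itself was 145 and 125 CPM per kilobase in the sham mice and 206 and 192 CPM per kilobase in the surgery mice.

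The members that were higher are those whose transcripts hold the least G and C. The GC content of the protein-coding transcripts is 40.9% for *Clk1*, 41.9% for *Clk4* and 43.4% for *Srpk2*, and it is 48.4% for *Srpk1*, 56.3% for *Clk3* and 56.7% for *Clk2*. At the third base of codons the GC content is 39.1%, 44.3% and 46.2% for the first 3 and 53.4%, 66.1% and 65.3% for the others. Over all genes the fold change fell from low to high GC content. In the eighth of the tested genes with the lowest GC content, which holds *Clk1* and *Clk4*, the median log2 fold change was 0.60 and 50.2% of the genes were higher. In the next eighth, with *Srpk2*, these values were 0.32 and 30.2%. In the seventh eighth, with *Clk2* and *Clk3*, the median was -0.26, with 0.561% higher. Each member lay above the median of its own eighth, by 0.29 for *Clk1*, 0.23 for *Clk4*, 0.26 for *Clk2*, 0.11 for *Clk3*, 0.09 for *Srpk2* and 0.05 for *Srpk1* on the log2 scale. For *Clk3* and *Srpk1* this excess was no larger than the SE of the fold change. The share of genes in the same eighth with a smaller log2 fold change was 77.5%, 72.5%, 80%, 65.5%, 62.3% and 56.8% in the same order.

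**Figure D2:**
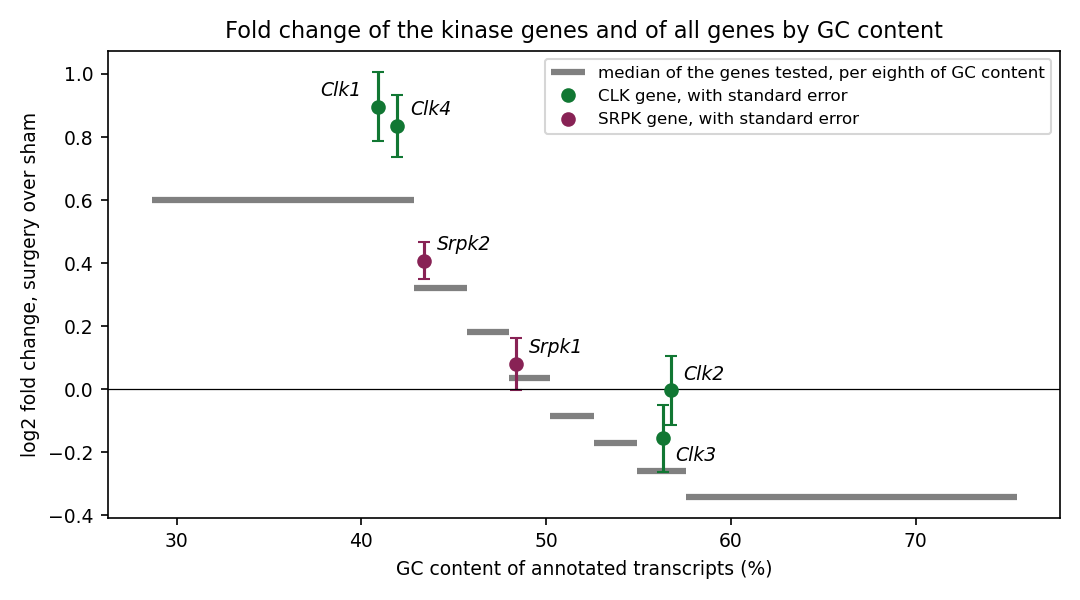
Log2 fold change of surgery over sham (vertical axis) against the GC content of the protein-coding transcripts in percent (horizontal axis). Points are the 6 kinase genes with their standard errors, and grey bars are the median of the tested genes in each eighth of GC content. The medians fall from 0.60 to -0.34, and Clk1, Clk4 and Srpk2 stand at the low-GC side.

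When offsets took out how each library varied with the length and GC content of transcripts, no member passed the test. The log2 fold change was then 0.35 for *Clk1* (SE 0.10, adjusted p = 0.120 from edgeR) and 0.36 for *Clk4* (SE 0.10, adjusted p = 0.100 from edgeR). For *Srpk2* it was 0.02 (SE 0.06, adjusted p = 0.888 from edgeR). The values for *Clk2*, *Clk3* and *Srpk1* were 0.23, 0.07 and -0.03, with adjusted p-values of 0.345, 0.784 and 0.898 from the same fit. In this fit 0.485% of 17120 genes were higher and 0.596% were lower. *Clk1* and *Clk4* had a larger log2 fold change than 87.3% and 87.7% of the genes. With a term for the replicate number added to the offsets, *Clk1* was 0.36 and *Clk4* 0.37, and both were called (adjusted p = 0.00956 and 0.0111 from edgeR). In that fit 718 of all 17120 genes were higher and 1447 lower, and no source says that the numbers pair mice. Whether the GC trend arose in the tissue or in the preparation of the libraries was not tested.

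**Figure D3:**
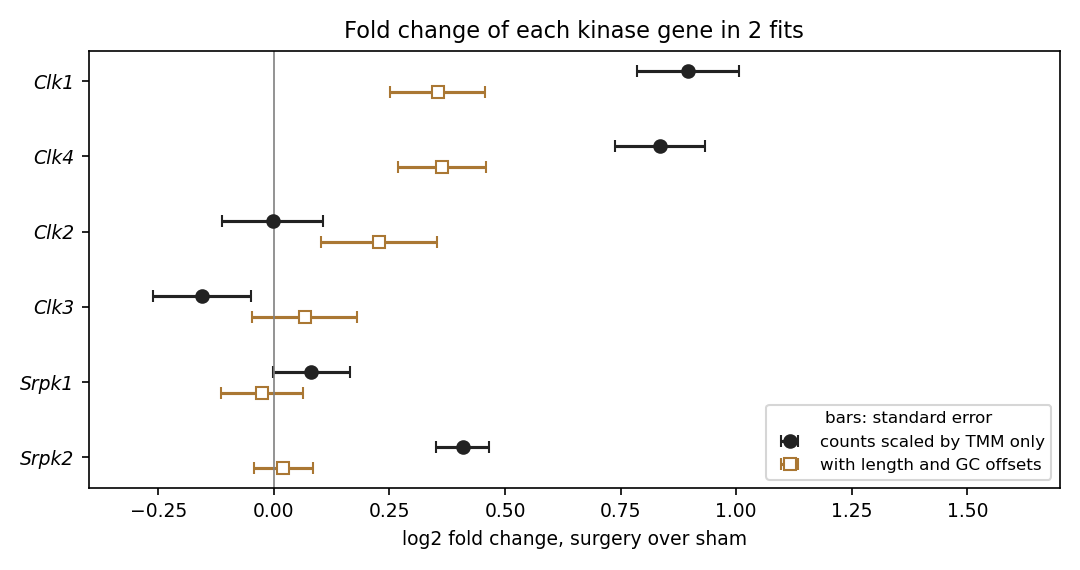
Log2 fold change of surgery over sham (horizontal axis) of the 6 kinase genes with counts scaled by TMM only (filled circles) and with offsets for transcript length and GC content (open squares). Bars are standard errors. Clk1 and Clk4 move from 0.90 and 0.84 to 0.35 and 0.36, and Srpk2 from 0.41 to 0.02.

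The substrates of these kinases were examined as a list of 13 SR and SR-related splicing factors, all of them tested. Of these, 9 were higher, none was lower and 4 did not pass the test, with a median log2 fold change of 0.53, where 13.1% of all genes tested were higher and 12.8% lower and the median was 0.01. *Srsf10*, a splicing regulator that is dephosphorylated on heat shock, was 47.0 and 40.5 CPM in the sham mice and 91.2 and 93.5 CPM in the surgery mice. Its groups did not overlap, with a log2 fold change of 1.08 (SE 0.09, adjusted p = 0.00424 from edgeR). *Tra2a*, which binds exonic splicing enhancers, was 101 and 76.2 CPM against 155 and 142 CPM, with a log2 fold change of 0.74 (SE 0.13, adjusted p = 0.0110 from edgeR). With the offsets for length and GC content 2 of the 13 were higher, where 0.485% of all genes were. These were *Srsf10*, at 0.65 (adjusted p = 0.0362 from edgeR), and *Srsf2*, at 0.64 (adjusted p = 0.0300 from edgeR), the latter named after its value was seen. *Srsf3*, called higher at 0.55, was -0.066 with the offsets (adjusted p = 0.656 from edgeR) and was also named after its value was seen. The GC content is 42.8% for *Srsf10* and 53.9% for *Srsf2*.

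Of 15 other kinases of SR proteins or their relatives, 14 were tested (all but *Dyrk4*). Of these, 3 were higher and none was lower, with a median log2 fold change of 0.06, beside all-gene shares of 13.1% higher and 12.8% lower. *Top1*, the topoisomerase that can also phosphorylate SR proteins, was 54.3 and 46.8 CPM in the sham mice and 89.1 and 96.6 CPM in the surgery mice, a log2 fold change of 0.88 (SE 0.10, adjusted p = 0.00446 from edgeR). *Prpf4b*, a nuclear kinase of the splicing machinery related to the CLKs, was 98.1 and 81.5 CPM against 159 and 156 CPM, a log2 fold change of 0.81 (SE 0.10, adjusted p = 0.00467 from edgeR). The third was *Cdk13*, a kinase of RNA polymerase II, at 0.32 (adjusted p = 0.0185 from edgeR), named after its value was seen. *Srpk3*, the muscle member of the SRPK family, had a low level of 6.52 to 10.4 CPM over the 4 mice and a log2 fold change of -0.28 (SE 0.23, adjusted p = 0.418 from edgeR). The higher count was 5 with total count scaling and over protein-coding genes only, and 1 of these kinases was lower without the second sham mouse or the first surgery mouse. With the offsets none of the 14 passed.

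Protein phosphatases 1 and 2A oppose the kinases, and the list of 7 subunits holds catalytic ones as well as a targeting and an inhibitory one. Of the 7, 1 was higher and 3 were lower, and over all genes tested 13.1% were higher and 12.8% lower. *Ppp1cb*, a catalytic subunit of protein phosphatase 1, was higher at 172 and 153 CPM in the sham mice against 260 and 277 CPM in the surgery mice (log2 fold change 0.73, SE 0.08, adjusted p = 0.00446 from edgeR). Lower were *Ppp1ca*, another catalytic subunit, with a log2 fold change of -0.38 (adjusted p = 0.00737 from edgeR), and *Ppp1r10*, a nuclear targeting subunit, with -0.36 (adjusted p = 0.0227 from edgeR). *Ppp1r8*, a nuclear inhibitor of the phosphatase, was also lower at -0.31 (adjusted p = 0.0325 from edgeR) and was named after its value was seen. The median log2 fold change of the 7 was -0.24. Without the second sham mouse or the second surgery mouse 1 of the 7 was lower, and *Ppp1r10* missed the threshold without either of these or the first surgery mouse (adjusted p = 0.105, 0.0530 and 0.0546 from edgeR). Without the filter on low counts 1 of the 7 was also lower, and *Ppp1r10* missed the threshold there too (adjusted p = 0.0586 from edgeR). *Ppp1cb* has a GC content of 41.7% and *Ppp1ca* of 56.1%, and none of the 7 passed the test with the offsets.

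Of 23 genes for the import of SR proteins and for arginine- and serine-rich proteins of nuclear speckles, 13 were higher, 3 were lower and 7 did not pass the test, with a median log2 fold change of 0.28. Shares over all genes were again 13.1% higher and 12.8% lower, so the count of lower genes was near the background. *Rbm25*, a regulator of splice site choice, was 88.0 and 73.3 CPM in the sham mice and 182 and 199 CPM in the surgery mice, a log2 fold change of 1.24 (SE 0.10, adjusted p = 0.00420 from edgeR). *Rsrc2* had a log2 fold change of 1.12 (SE 0.09, adjusted p = 0.00420 from edgeR). The lower genes were *U2af2*, which binds the polypyrimidine tract, at -0.37 (adjusted p = 0.00896 from edgeR), *Scaf1* at -0.34 (adjusted p = 0.00824 from edgeR) and *Scaf4* at -0.25 (adjusted p = 0.0445 from edgeR), the last of these named after its value was seen. *Tnpo3*, the importin that carries phosphorylated SR proteins, had a log2 fold change of -0.15 (SE 0.10, adjusted p = 0.303 from edgeR). Without the second sham mouse 8 of the 23 were higher. With the offsets the median log2 fold change of the 23 was 0.17. Then 4 of the 23 were higher and none was lower, against 0.485% and 0.596% of all genes. Those 4 were *Rbm25* at 0.93, *Rsrc2* at 0.64 and, named after their values were seen, *Luc7l2* at 0.65 and *Srrm1* at 0.64.

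CLK activity and *Clk1* splicing are known to respond to body temperature and heat shock, and 9 temperature-responsive genes were listed for that reason. Of the 9, 1 was higher and 1 lower, near the shares of 13.1% and 12.8% over all genes tested. *Hsp90aa1* was the 1 gene that was higher, with a log2 fold change of 0.42 (SE 0.09, adjusted p = 0.0224 from edgeR). *Hspa1a* was the 1 gene that was lower, at -0.70 (SE 0.20, adjusted p = 0.0458 from edgeR). The cold-induced RNA-binding genes *Cirbp* and *Rbm3* had log2 fold changes of -0.18 and 0.12 (adjusted p = 0.506 and 0.604 from edgeR), and their groups overlapped. *Hsp90aa1* lost its call without the second sham mouse and without the filter on low counts (adjusted p = 0.0769 and 0.0653 from edgeR). *Hspa1a* lost its call without the second sham mouse, the first surgery mouse or the second (adjusted p = 0.196, 0.128 and 0.0547 from edgeR). It also lost it with total count scaling, without the filter (adjusted p = 0.0575 and 0.0791 from edgeR) and with DESeq2 (adjusted p = 0.0765). The count of lower genes was 2 without the first surgery mouse, with upper quartile scaling, at a mean of at least 1 CPM and with the replicate block, and the count of higher genes was 2 without the second surgery mouse. With the offsets none of the 9 passed.

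**Figure D4:**
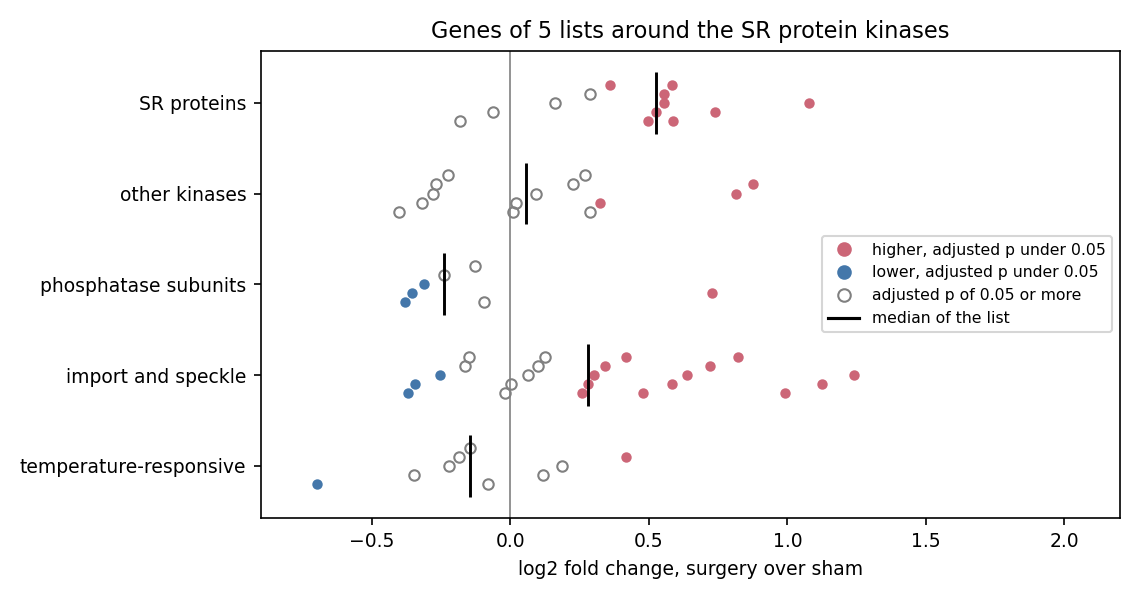
Log2 fold change of surgery over sham (horizontal axis) for the tested genes of 5 lists around the SR protein kinases. Red points were higher and blue points lower at an adjusted p under 0.05, open points did not pass, and black lines are list medians. Of the 13 SR proteins 9 are red, and of the 14 other kinases 3 are red.

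The genes most like each member were sought among 10145 protein-coding genes with a mean of at least 10 CPM, as those with the smallest Euclidean distance between mean-centred log2 CPM values over the 4 mice. For *Clk1* they were *Klhl28*, *Kitl* and *Gabpa*, at distances of 0.0503 to 0.0531. For *Clk4* they were *Mysm1*, *Arid4a* and *Prpf4b*, at 0.0208 to 0.0381. For *Srpk2* they were *Zrsr2*, which encodes a U2AF-related splicing factor, *Nap1l1* and *Cisd2*, at 0.0156 to 0.0210. The nearest genes of *Clk2* were *Mrpl45*, *Ppdpf* and *Tmem260*, those of *Clk3* were *Asic1*, *Bcl7b* and *Zfp276*, and those of *Srpk1* were *Zfp866*, *Sdcbp* and *Nol4l*. The GC content of these genes was 38.0% to 42.1% for *Clk1*, 40% to 45.9% for *Clk4* and 41.7% to 47.2% for *Srpk2*. It was 47.8% to 59.7% for *Clk2*, 56.0% to 58.9% for *Clk3* and 44.3% to 52.8% for *Srpk1*. With 4 mice such a distance describes these libraries only.

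Library totals ran from 15763432 to 18573386 counts, and 24238 to 25324 genes were detected per mouse. Transcripts of the mitochondrial genome, its rRNA included, took 3.05% and 2.70% of the counts in the sham mice and 5.10% and 5.14% in the surgery mice. The counts of called markers given next stand beside 13.1% higher and 12.8% lower over all genes tested, so that 1 called marker in a list of 5 to 8 is near the background. The labelled tissue was checked by 8 neuronal markers, which were all tested and summed to 11303 and 11045 CPM in the sham mice and 9993 and 9669 CPM in the surgery mice, with 1 marker higher and 3 lower. Astrocyte markers summed to 3305 to 3557 CPM in the sham mice and 3883 to 4105 CPM in the surgery mice, with 3 of 6 higher and 1 lower. The 7 RNAs known to stay in the nucleus summed to 8167 to 8370 CPM in the sham mice and 9291 to 10453 CPM in the surgery mice, with 3 higher and 1 lower. Choroid plexus markers summed to 127 and 5399 CPM in the sham mice and 2031 and 3440 CPM in the surgery mice, and none of the 5 passed the test. Of the other markers, 2 of 6 for hippocampal neurons, 1 of 6 for microglia and 1 of 5 for endothelial cells were higher, and 1 of 6 for hippocampal neurons, 1 of 2 for oligodendrocyte precursors and 1 of 5 tested for neutrophils were lower. None of 6 for oligodendrocytes and none of 3 tested for red blood cells passed, and red blood cell markers summed to 5.09 to 11.2 CPM over the 4 mice. No marker listed was at 0 in all 4 mice. The part of these differences in the values of the kinase genes was not tested.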

How the data were processed

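Hippocampal poly(A) RNA of 2 sham and 2 surgery mice was sequenced as paired-end reads. The authors mapped the reads to mm10 with HISAT and deposited whole-number counts of reads per gene without normalization. The submitters' processing notes also name Bowtie2 2.2.3, TopHat2, HISAT2 2.1.0 and HTSeq 0.6.0, with no roles. The fold changes and p-values in the same table are the authors' own comparison and were not used.

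Symbols of 24 genes turned into dates were restored from identifiers. Genes were filtered with edgeR 4.0.16 (filterByExpr, minimum count 10), scaled by TMM and tested by the quasi-likelihood F test (glmQLFit, glmQLFTest) with group as the only term and Benjamini-Hochberg adjustment, in R 4.3.3. Standard errors came from the F statistic. GC content was pooled over protein-coding transcripts of GENCODE M21, and offsets were smooth fits per library with mgcv 1.9.3 and a basis size of 8. Log2 CPM values used a prior count of 2. DESeq2 1.42.0 and limma 3.58.1 (voom) were alternatives, with other scalings and filters, thinning, a replicate block and leaving out each mouse. The main edgeR fit, DESeq2 and voom were run on simulated counts with known fold changes and no GC trend. The offset fits, the replicate block and the other alternatives were not tested on simulated data.

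The members and lists were chosen with earlier results of these data known. Named were all 6 members, the 2 largest rises and 2 largest falls per list among genes with an adjusted p under 0.05, the 3 genes most like each member, and genes sharing exonic sequence with a member. *Srpk3*, *Tnpo3*, *Cirbp* and *Rbm3* fall outside this rule and, like the genes marked so in the text, were chosen after their values were seen, as were *Scaf11* and *Srsf3*. Cell type marker lists served as checks of the tissue. No label states that same-numbered mice are related, and replicates are separate animals whose counts differed by more than sampling noise (chi-square per degree of freedom 13.4 in sham and 8.45 in surgery mice).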

Additional observations from a re-analysis of the deposited data

How the results depend on the processing

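Each member was refitted under 18 alternatives. *Clk1* ran from 0.35 to 1.06, *Clk4* from 0.36 to 0.96 and *Srpk2* from 0.016 to 0.46 on the log2 scale, and all 3 stayed higher with an adjusted p of at most 0.0257 from every tool wherever no GC offset was used. With length and GC offsets and with a GC offset alone, 0 members were called higher or with the fold limits. The GC offset alone gave 0.35 for *Clk1* (adjusted p = 0.121), 0.36 for *Clk4* (0.103), 0.016 for *Srpk2* (0.913), 0.22 for *Clk2*, 0.061 for *Clk3* and -0.032 for *Srpk1*, and both offsets gave 0.35, 0.36, 0.020, 0.23, 0.067 and -0.026 in the same order. With both offsets and the replicate block *Srpk2* was 0.020 (0.846), *Clk2* 0.23, *Clk3* 0.058 and *Srpk1* -0.024, while *Clk1* at 0.36 (0.00956) and *Clk4* at 0.37 (0.0111) were called, and 0 members passed the fold limits. The replicate block alone gave 0.90 for *Clk1* and 0.0012 for *Clk2* and changed no call. No source says that the numbers pair mice, and whether they do was not settled by the correlation of same-numbered deviations, 0.22 over 17144 genes with 2 pairs only. *Clk2* was 0.045 with total count scaling, 0.024 over protein-coding genes and 0.0028 with voom. Fold limits of 2 and 0.5 left 0 members. Without 1 mouse, *Clk1* was 0.74 to 1.06, *Clk4* 0.71 to 0.96, *Srpk2* 0.38 to 0.42, *Clk2* -0.13 to 0.13, *Clk3* -0.33 to -0.0071 and *Srpk1* -0.0074 to 0.16, and 0 to 1 members were lower, the 1 being *Clk3* without the first surgery mouse. For the 13 named list genes, 196 of 234 comparisons with an alternative kept the call, 38 lost it, in 10 of the genes, and none turned direction, while 15 of all 66 list genes tested had the other sign with both offsets, *Srsf3* and *Scaf11* among those called. Of 180 comparisons of list counts, 40 moved by over 1.5 times. With both offsets and the replicate block, 4 SR proteins were higher and 1 lower, 3 other kinases higher, 1 phosphatase subunit higher and 2 lower, and 10 import and speckle genes higher and 1 lower. The replicate block alone gave 2 lower kinases. Over all genes, 2249 were higher and 2201 lower as reported, 1315 and 1350 without a filter, 83 and 102 with both offsets, 103 and 152 with the GC offset, 718 and 1447 with both offsets and the replicate block, 1201 and 1207 without the second sham mouse, and 1586 and 1347 without the second surgery mouse. The cause of these differences was not tested.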
